A study of Mus musculus with 6 samples.

Results

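The necroptosis machinery comprises here 8 mouse genes, taken by name from the gene count table: *Ripk1*, *Ripk3*, *Mlkl*, *Zbp1*, *Fadd*, *Casp8*, *Cflar* and *Pgam5*. All 8 were found, among 54532 genes. Their mRNA was examined in MLE12 cells, a line of mouse lung epithelial cells derived from animals that carried the SV40 large T antigen under the surfactant protein C promoter. The strain of the cells is labelled C57BL/6J. In the Ctrl shRNA group (3 samples), cells received a control lentivirus at an MOI of 50 (multiplicity of infection, viral particles for each cell), which the labels describe as an empty vector. In the Idh3α shRNA + Slc25a1 shRNA group (3 samples, called knockdown below), cells received 2 lentiviruses together, each at an MOI of 50, one silencing *Idh3a*, a subunit gene of mitochondrial isocitrate dehydrogenase, and one silencing *Slc25a1*, the mitochondrial citrate carrier. The total viral dose therefore differed between the groups and cannot be told apart from the knockdown. All cells received the virus with the infection enhancer HitransG P, were kept in it for 16 h and were then cultured for 80 h more. The comparison asks whether the mRNAs of the necroptosis pathway differ when a step that uses mitochondrial citrate and a step that exports it are silenced together. The labels do not say whether the 3 samples of a group were separate infections, so p-values measure the spread between these samples, which may be technical.

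In necroptosis, cells swell and burst under the control of a signalling cascade, and the proteases that carry out apoptosis are not needed. After a death receptor is engaged, the kinases RIPK1 and RIPK3 assemble through a shared interaction motif. A sensor such as ZBP1 can also start the pathway. RIPK3 phosphorylates the pseudokinase MLKL, which oligomerizes and permeabilizes the plasma membrane. The adaptor FADD, the protease caspase 8 and its catalytically inactive relative cFLIP, the product of *Cflar*, hold this pathway in check by cleaving RIPK1 and RIPK3. PGAM5 is a mitochondrial phosphatase that has been linked to the pathway through its substrates DRP1 and FUNDC1. Many of these steps are controlled by phosphorylation and cleavage of proteins, which mRNA counts do not measure.

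Sequences at the start sites of the genes were read from RefSeq (GRCm38.p6), which gave a window of 250 bases before and 50 bases after the start for 6 members. No entry was used for *Zbp1* or *Pgam5*. The parts of 3 windows that lie upstream of every annotated base of the gene are shown, because *Ripk3* was the lowest member with a window, *Fadd* the only member whose groups did not overlap in all 6 libraries, and *Ripk1* the kinase partner of *Ripk3*. They run 5′ to 3′ on the strand of the gene, with each CG pair in capitals.
Ripk3, chr14:55788866-55789107, minus strand: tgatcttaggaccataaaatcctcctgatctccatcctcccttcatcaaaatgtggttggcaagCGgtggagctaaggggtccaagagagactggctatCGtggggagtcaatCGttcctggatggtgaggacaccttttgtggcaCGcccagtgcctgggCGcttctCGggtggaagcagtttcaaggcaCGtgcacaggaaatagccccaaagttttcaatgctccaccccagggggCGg
Ripk1, chr13:34002113-34002224, plus strand: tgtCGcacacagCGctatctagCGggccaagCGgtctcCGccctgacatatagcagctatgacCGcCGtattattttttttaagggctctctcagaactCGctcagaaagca
Fadd, chr7:144582464-144582691, minus strand: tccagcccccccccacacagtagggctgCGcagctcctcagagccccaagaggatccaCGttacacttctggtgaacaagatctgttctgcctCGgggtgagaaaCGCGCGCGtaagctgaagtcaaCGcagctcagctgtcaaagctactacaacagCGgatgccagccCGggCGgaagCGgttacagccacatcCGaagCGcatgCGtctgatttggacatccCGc
Over the whole 300-base windows, *Ripk3* held 10 CG pairs, while *Fadd* and the first window of *Ripk1* held 22 each, a number that 23.1% of all 32851 windows reached. The median window held 7. *Mlkl*, whose mRNA was abundant, had 7 CG pairs and *Casp8* had 5, so the number of CG pairs did not follow the order of the mRNA levels. On either strand, the interferon-type motif (GAAA, any pair of bases, GAAA) had 1 match in the *Cflar* window and 1 in a further *Ripk1* window with 36 CG pairs, against 3.44% of all windows with a match. The same *Ripk1* window held 2 matches of TTCNNNGAA, found in 8.30% of all windows. The NF-κB-type motif (GGGA, any base, TTTCC) had 0 matches in the windows of the members and was found in 0.411% of all windows. These matches are descriptions of letters in a window and were not tested further.

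The libraries had similar totals of 27273502 to 28535653 counts. Ctrl shRNA replicate 2 stood apart at such a total, with 16681 genes that had at least 1 count against 19902 to 23147 in the other 5 libraries, and with 6.49% of counts on mitochondrially encoded genes against 1.57% to 1.80%. The fold changes of the members are therefore given with and without this library. CPM below is the count per 1000000 counts of the library after TMM scaling, edgeR's correction for libraries in which a few genes take many reads. The TMM factor was 0.711 for Ctrl shRNA replicate 2 and 1.05 to 1.09 for the other 5 libraries. Scaling thus raised the values of that library relative to the others. In CPM, that library lay below all others in 5 of the 7 members that could be tested and above all in 2 (*Mlkl* and *Casp8*). The shares over all 15307 genes tested were 38.6% and 34.4%. In raw counts, *Casp8* was lowest in that library (1264), and *Mlkl* (888) lay between the other controls. *Idh3a* ranged from 79.8 to 137 CPM in control and from 55.5 to 58.5 CPM in knockdown libraries (log2 fold change -0.85, adjusted p = 0.254 by edgeR), and *Slc25a1* was at 98.7 to 108 and 63.0 to 69.6 CPM (-0.62, adjusted p = 0.104). Neither target passed the test with all libraries, and both did without Ctrl shRNA replicate 2 (log2 fold changes -0.60 and -0.66, adjusted p = 0.0142 and 0.00649 by edgeR). Of 9 alveolar type 2 markers, 5 had at least 10 counts in every sample, while *Sftpd* was at 0 in all libraries and *Sftpa1* had 2 counts in all. The summed level of the 9 was 524 to 533 CPM in the controls and 442 to 473 CPM in the knockdown samples, without overlap. Within it, *Sftpc* was at 44.1, 97.3 and 50.9 CPM in the controls and 35.9, 28.5 and 27.2 CPM in the knockdown samples, and *Nkx2-1* averaged 336 and 293 CPM, while *Abca3* averaged 127 and 132 CPM and *Napsa* 0.630 and 1.27 CPM. The sum of 6 epithelial markers was 1051 to 1185 CPM in the controls and 1184 to 1296 CPM in the knockdown samples. Of 5 leukocyte genes, *Ptprc* and *Adgre1* were at 0 and *Cd68* alone had at least 10 counts in every library, and their sum was 1.92 to 2.47 CPM in the controls and 2.51 to 3.06 CPM in the knockdown samples. The list of 4 fibroblast genes, nearly all of it *Dcn*, reached 1233 CPM in Ctrl shRNA replicate 2 and was at 346 and 377 CPM in the other controls, against 317 to 345 CPM in the knockdown samples. The part of these markers in the results was not tested. In bulk RNA, fewer cells that express a gene and less RNA per cell cannot be told apart.

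None of the necroptosis genes passed an adjusted p of 0.05 between knockdown and Ctrl shRNA cells. Of the 8 members, 7 had enough counts to be tested and *Zbp1* did not. With all 6 libraries, 0 of the 7 were called by edgeR's quasi-likelihood test (Benjamini-Hochberg over 15307 genes), where 0.0653% of all genes were called, and 0 of 7 had an unadjusted p under 0.05, against 14.1% of all genes. Without Ctrl shRNA replicate 2, 0 of 7 were called, against 1.79% of all genes, and 1 of 7, *Cflar*, had an unadjusted p under 0.05, against 19.9%. DESeq2 gave an adjusted p for 6 members, all but *Ripk3*, and called 0 of the 6 with all libraries. It called 2.99% of all 15307 genes, a share that also counts genes without an adjusted p. Limma's voom with sample quality weights, which gives less weight to a deviating library, also called 0 of 7, against 15.0% of all genes, and gave *Cflar* and *Fadd* an unadjusted p under 0.05, against 34.8% of all genes. The median log2 fold change of the 7 was 0.19 with all libraries and 0.06 without Ctrl shRNA replicate 2, beside -0.01 and -0.02 over all genes tested.

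**Figure D1:**
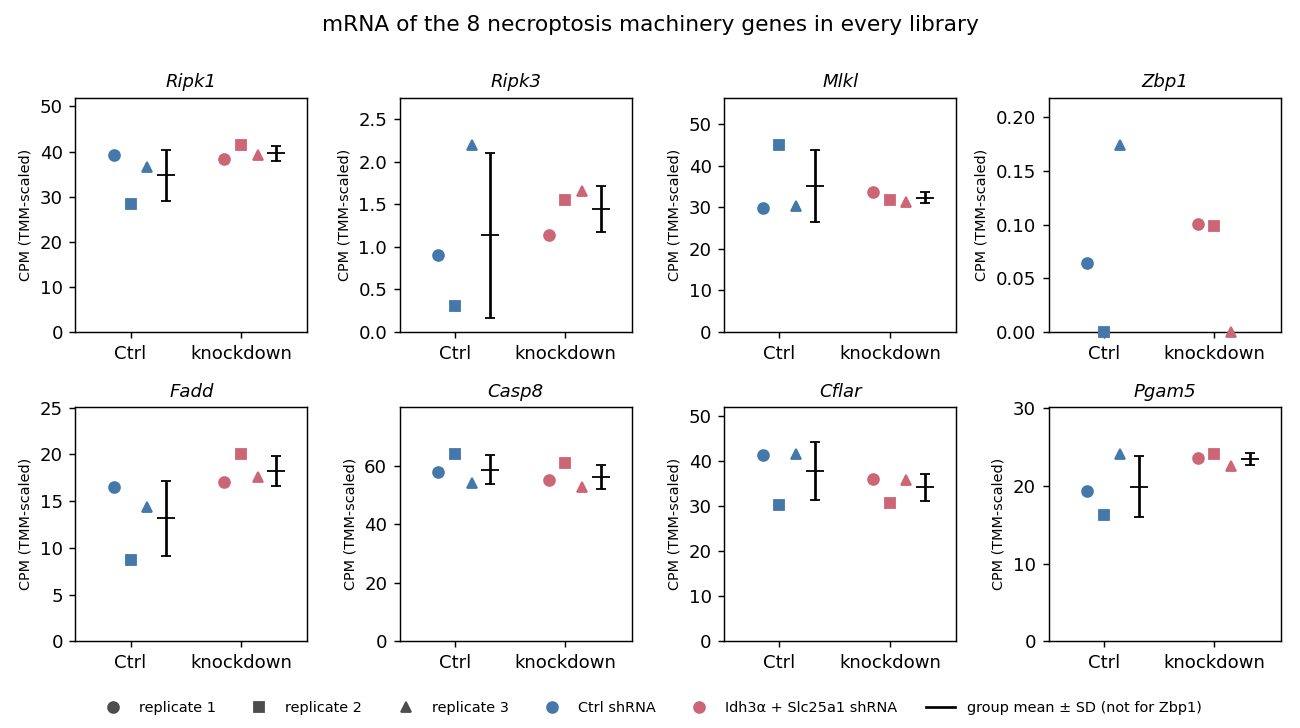
TMM-scaled CPM (y axis, from 0) of the 8 genes in the 3 Ctrl shRNA and 3 knockdown libraries (x axis), with 1 symbol per replicate and the group mean ± SD beside the points except for *Zbp1*. The square for Ctrl shRNA replicate 2 lies at the edge of the values for all 7 members tested, and *Fadd* is the one panel where all knockdown samples lie above all controls.

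The members spanned a wide range of levels. To compare genes, CPM was divided by the gene length in kilobases. *Casp8* had the highest level per length (a mean of 19.9 CPM per kilobase over 6 libraries), followed by *Mlkl* (14.6), *Pgam5* (9.13), *Ripk1* (4.45), *Fadd* (4.02), *Cflar* (2.84), *Ripk3* (0.563) and *Zbp1* (0.0207). The ranges over the 6 libraries overlapped between the neighbours *Casp8* and *Mlkl*, between *Ripk1* and *Fadd* and between *Fadd* and *Cflar*. *Casp8* was nevertheless above *Mlkl* in 6 of 6 libraries. The gaps from *Mlkl* to *Pgam5*, from *Pgam5* to *Ripk1*, from *Cflar* to *Ripk3* and from *Ripk3* to *Zbp1* were free of overlap. The deposited length counts all exons of a gene together, 12669 bases for *Cflar* and 8344 for *Ripk1* against 2303 for *Mlkl*, so that a gene whose cells use a short transcript is placed too low.

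Among all protein-coding genes of the table ranked by mean level per length, *Casp8* stood at percentile 86.8 and *Mlkl* at 82.6. The kinase *Ripk3* stood at percentile 49.8 and *Zbp1* at 35.7, a region of the ranking in which genes have few reads. In both groups the executioner gene was thus read far more often than the kinase gene that acts on it.

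**Figure D2:**
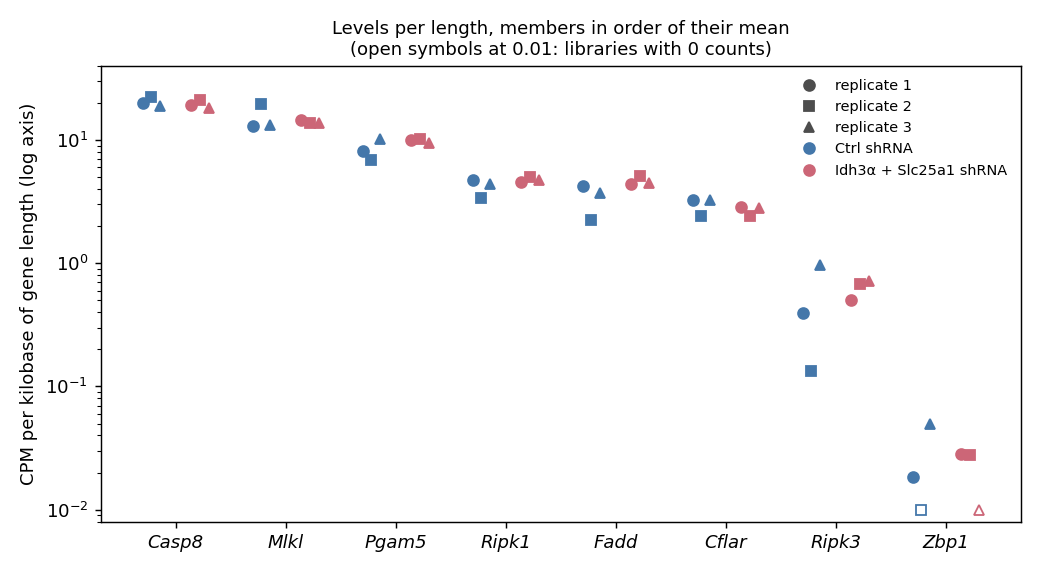
CPM per kilobase of gene length (y axis, log scale) of the 8 members, ordered by their mean, in the 6 libraries, with colour for the group and shape for the replicate number. *Casp8* and *Mlkl* lie near or above 13 in every library, *Ripk3* lies between 0.133 and 0.958, and the open symbols mark the 2 libraries without a *Zbp1* read.

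The sensor comes first in the pathway. *Zbp1* (ENSMUSG00000027514, chromosome 2 of GRCm38, 173206612 to 173218923) encodes a receptor for left-handed double-stranded nucleic acid and is a classical interferon-induced gene. It had 2, 0 and 5 counts in Ctrl shRNA replicates 1, 2 and 3 and 3, 3 and 0 counts in the knockdown replicates. The groups thus held 7 and 6 reads in all, and both levels were too low for a fold change. A library with 0 counts still allows up to 3 counts (a one-sided 95% limit, for counting error only). At this depth, differences of moderate size in *Zbp1* were not detectable.

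*Ripk1* (ENSMUSG00000021408, chromosome 13, 34002363 to 34037147) encodes the kinase that is recruited to TNF receptor 1. It had 1213, 562 and 1046 counts in the controls, or 39.2, 28.4 and 36.5 CPM, and 1139, 1258 and 1161 counts in the knockdown samples, or 38.3, 41.5 and 39.1 CPM. The knockdown values lay within the range that the controls spanned or just above it, and the groups overlapped. Means of 34.7 ± 5.58 and 39.6 ± 1.65 CPM (SD, 3 samples in each group) corresponded to a log2 fold change of 0.19 by edgeR (standard error 0.13, adjusted p = 0.471). Leaving out Ctrl shRNA replicate 2, the log2 fold change was 0.06, with a 95% confidence interval of -0.12 to 0.24, or 0.917-fold to 1.18-fold, and without Ctrl shRNA replicate 1 it was 0.29. Exons of *Ripk1* share 241 bases with *Serpinb6a* on the opposite strand, a gene with 22732 counts in all against 6379 for *Ripk1*. *Gm17084*, on the same strand, shares 511 exon bases and was listed at 0 counts. No source used here says whether strand was used in counting, and the values of *Ripk1* are uncertain to that extent.

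*Ripk3* (ENSMUSG00000022221, chromosome 14, 55784995 to 55788865) encodes the kinase that phosphorylates MLKL. It had 28, 6 and 63 counts in the controls and 34, 47 and 49 in the knockdown samples. The controls ranged from 0.304 to 2.20 CPM and enclosed all knockdown values, which ran from 1.14 to 1.65 CPM. The 95% Poisson intervals of the lowest control (2.20 to 13.1 counts) and of the highest (48.4 to 80.6 counts) were far apart, so that the spread among the controls exceeded counting error. The means were 1.13 ± 0.967 and 1.45 ± 0.270 CPM (SD, n = 3 each). By edgeR the log2 fold change was 0.33 (standard error 0.64, adjusted p = 0.814) with an interval of -1.22 to 1.88, from 0.428-fold to 3.68-fold. The sign was the opposite without Ctrl shRNA replicate 2 (-0.10, standard error 0.38, adjusted p = 0.910 by edgeR), and the interval, 0.508-fold to 1.72-fold, was still wide. Leaving out Ctrl shRNA replicate 3, the highest control, gave 1.20 (unadjusted p = 0.0740, adjusted p = 0.375 by edgeR).

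*Mlkl* (ENSMUSG00000012519, chromosome 8, 111311797 to 111338177) encodes the pore-forming pseudokinase. It had 924, 888 and 867 counts in the controls and 1003, 963 and 929 in the knockdown samples. Scaled, the controls were at 29.9, 45.0 and 30.2 CPM and the knockdown samples at 33.7, 31.7 and 31.3 CPM. After scaling, the 2nd control was the highest library and the other 2 controls were the lowest. The raw count of the 2nd control, 888, lay between those of the other controls. Its TMM factor was 0.711, against 1.05 to 1.09 in the other libraries. The direction of the difference thus hung on that library and its scaling. With all libraries the means were 35.0 ± 8.61 and 32.3 ± 1.27 CPM (SD, n = 3 each; log2 fold change -0.12, standard error 0.17, adjusted p = 0.750 by edgeR). Once Ctrl shRNA replicate 2 was left out, every knockdown sample was above both controls and the log2 fold change was 0.09 (standard error 0.08, adjusted p = 0.541 by edgeR). The interval of this fit, -0.09 to 0.27 on the log2 scale, ended at a 1.21-fold higher level. Leaving out Ctrl shRNA replicate 1 or 3 instead gave -0.21 and -0.23. Raw counts, before any scaling, were 2679 over the 3 controls and 2895 over the 3 knockdown libraries.

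The genes that hold necroptosis in check come next. *Fadd* (ENSMUSG00000031077, chromosome 7, 144577318 to 144582463), the adaptor that brings caspase 8 to death receptors, had 510, 172 and 412 counts in the controls and 507, 607 and 520 in the knockdown samples. In CPM these were 16.5, 8.71 and 14.4 against 17.0, 20.0 and 17.5. All knockdown samples lay above all controls, and *Fadd* was the 1 of 7 members tested with this property, where 25.4% of all genes had groups that did not overlap. The mean was 13.2 ± 4.02 CPM in the controls and 18.2 ± 1.59 CPM in the knockdown (SD, n = 3 each). EdgeR gave a log2 fold change of 0.46 (standard error 0.24), with an unadjusted p of 0.0979 and an adjusted p of 0.384. The log2 fold change without Ctrl shRNA replicate 2 was 0.23 (standard error 0.11, adjusted p = 0.308 by edgeR), against 0.46 with all libraries. Without Ctrl shRNA replicate 1 it was 0.66 (unadjusted p = 0.0367, adjusted p = 0.188 by edgeR). The antisense gene *Faddos* shares 239 exon bases with *Fadd* and had 20 counts in all.

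*Casp8* (ENSMUSG00000026029, chromosome 1, 58795374 to 58847503) encodes the protease that cleaves RIPK1 and RIPK3. It had 1796, 1264 and 1550 counts in the controls and 1640, 1847 and 1562 in the knockdown samples, or 58.0, 64.0 and 54.0 against 55.1, 60.9 and 52.7 CPM. It was the steadiest member in the controls, with an SD of 8.53% of the mean against 16.1% to 85.2% in the other 6 that were tested. The means of 58.7 ± 5.00 and 56.2 ± 4.22 CPM (SD, n = 3 each) differed by -0.06 on the log2 scale in edgeR (standard error 0.10, adjusted p = 0.765). Its interval reached from 0.814-fold to 1.13-fold, the narrowest of the 7. The log2 fold change was -0.005 without Ctrl shRNA replicate 2 (adjusted p = 0.981 by edgeR), -0.13 without Ctrl shRNA replicate 3 and -0.12 without knockdown replicate 2.

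*Cflar* (ENSMUSG00000026031, chromosome 1, 58711508 to 58758884) lies beside *Casp8* on the same strand and encodes cFLIP. It had 1282, 600 and 1193 counts in the controls and 1073, 934 and 1061 in the knockdown samples. Scaled, Ctrl shRNA replicates 1 and 3 were at 41.4 and 41.6 CPM, above all knockdown samples at 36.1, 30.8 and 35.8 CPM, while Ctrl shRNA replicate 2 was below them at 30.4 CPM. With all libraries the means were 37.8 ± 6.43 and 34.2 ± 2.97 CPM (SD, n = 3 each; log2 fold change -0.14, standard error 0.15, adjusted p = 0.623 by edgeR). Without Ctrl shRNA replicate 2 the log2 fold change was -0.29 with an interval of -0.49 to -0.08 (unadjusted p = 0.0114, adjusted p = 0.146 by edgeR). *Cflar* was closest to the threshold of the 7 members in this fit and did not pass it. DESeq2 without that library gave an adjusted p of 0.0828. With all libraries, voom with sample quality weights gave *Cflar* a log2 fold change of -0.24 (interval -0.41 to -0.07, adjusted p = 0.0640) and *Fadd* 0.28 (interval 0.05 to 0.51, adjusted p = 0.0892). By edgeR, the log2 fold change of *Cflar* was nearer to 0 without Ctrl shRNA replicate 1 (-0.07), Ctrl shRNA replicate 3 (-0.08) or knockdown replicate 2 (-0.07). In the 5 libraries without Ctrl shRNA replicate 2, 3 of the 7 members (*Cflar*, *Fadd* and *Mlkl*) had groups that did not overlap, against 37.6% of all genes.

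*Pgam5* (ENSMUSG00000029500, chromosome 5, 110259130 to 110269913), the mitochondrial phosphatase, had 600, 321 and 691 counts in the controls and 702, 731 and 670 in the knockdown samples. The controls were at 19.4, 16.2 and 24.1 CPM, the knockdown samples at 23.6, 24.1 and 22.6 CPM. Replicate 3 of the controls reached the top of the knockdown range, and the groups overlapped. Mean levels of 19.9 ± 3.95 and 23.4 ± 0.765 CPM (SD, 3 libraries in each group) differed by 0.23 on the log2 scale (standard error 0.15, adjusted p = 0.454 by edgeR). The difference without Ctrl shRNA replicate 2 was 0.10 (standard error 0.11, adjusted p = 0.641 by edgeR), and without Ctrl shRNA replicate 3, the highest control, it was 0.38 (unadjusted p = 0.0240, adjusted p = 0.373). *Pgam5* shares 1378 exon bases with the gene *Gm26718* on the opposite strand, which was listed at 0 counts. This is 1378 of the 2373 exon bases of *Pgam5*, and since the use of strand in counting is not given, its level and its place in the order of levels are uncertain.

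**Figure D3:**
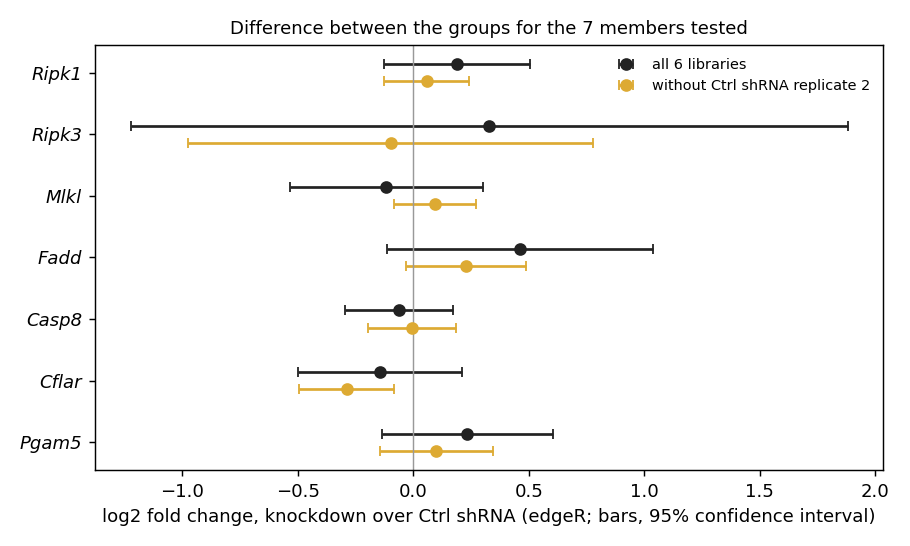
Log2 fold change of knockdown over Ctrl shRNA (x axis) for the 7 members tested (y axis), from edgeR with all 6 libraries and without Ctrl shRNA replicate 2, with 95% confidence intervals as bars. All intervals include 0 with 6 libraries, and that of *Cflar* (-0.49 to -0.08) excludes it without the replicate.

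Scaling between libraries cancels in a ratio taken within a library, so the balance between partners was also examined per length. The ratio of *Fadd* to *Casp8* was 0.211, 0.101 and 0.197 in the controls and 0.229, 0.244 and 0.247 in the knockdown samples. Each knockdown sample was above each control, and the log2 ratio differed by 0.57 (two-sided exact permutation test, p = 0.1, adjusted p = 0.2 over 2 ratios tested), where 0.1 is the smallest p that 3 samples against 3 allow. This difference became 0.24 without Ctrl shRNA replicate 2 (exact permutation p = 0.2, the smallest possible for 2 against 3). The ratio of *Cflar* to *Casp8*, the inhibitor to its protease, was 0.163, 0.108 and 0.176 in the controls and 0.149, 0.115 and 0.155 in the knockdown samples. These groups overlapped, and the log2 ratio differed by -0.07 (two-sided exact permutation test, p = 0.7, adjusted p = 0.7). With that library left out, both controls were above all knockdown samples and the difference was -0.29 (exact permutation p = 0.2).

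The ratios with *Ripk3* were not tested, because its count fell to 6 in a library. *Mlkl* exceeded *Ripk3* in every library, by 32.8-, 147- and 13.7-fold per length in the controls and by 29.4-, 20.4- and 18.9-fold in the knockdown samples. The knockdown values lay inside the range of the controls. *Ripk3* stood at 0.084, 0.0389 and 0.219 times the level of *Ripk1* in the controls and at 0.109, 0.136 and 0.154 times in the knockdown samples.

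Across the 6 libraries, the genes whose log2 CPM followed the members most closely were *Srgap2* for *Ripk1* (Pearson's r = 0.997), *Gm8894* for *Mlkl* (0.998), *Arhgef7* for *Fadd* (0.999), *Lancl2* for *Casp8* (0.997), *Serhl* for *Cflar* (0.996) and *Gps1* for *Pgam5* (0.999). *Ripk3* was left out for its low count. These are descriptions over 6 points that share the deviating library. For *Fadd*, 699 genes had an r above 0.95, and for *Casp8*, whose value in that library was nearest to those of the others, 26 did.

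The other genes of the pathway were taken from 9 lists by role, 81 genes in all, of which 79 were tested. With all 6 libraries, 1 of the 79 was called, beside 0.0653% of all genes, and 17 had an unadjusted p under 0.05, beside 14.1%. The called gene was *Tnfaip3*, which encodes A20, a ubiquitin editor that restrains RIPK1 and RIPK3. It rose from 20.7, 17.7 and 17.4 CPM to 66.6, 70.6 and 66.6 CPM (log2 fold change 1.87, standard error 0.10, adjusted p = 0.0116 by edgeR), and the groups were far apart. Its log2 fold change was 1.54 to 2.03 over 18 alternatives, and its call was kept in 12 of them. The call was lost with library size only and without Ctrl shRNA replicate 3 or any 1 of the knockdown replicates (adjusted p = 0.103 to 0.209 by edgeR). It was also lost with a replicate block (adjusted p = 0.446 by edgeR), although replicates share a number only. In the fit without Ctrl shRNA replicate 2, 6 of the 79 were higher and 0 were lower, beside 1.79% of all genes.

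Of 13 ligands and receptors, 11 were tested, and 0 were called with all libraries. The ligand genes *Tnf* and *Fasl* had 6 and 2 counts over all libraries and were not tested. *Tnfsf10*, which encodes the ligand TRAIL, had 120 counts (log2 fold change -0.34, adjusted p = 0.842 by edgeR, and 0.17 without Ctrl shRNA replicate 2, adjusted p = 0.913). *Tnfrsf1a*, the receptor that nucleates the RIPK1 complex, was at 203 and 198 CPM on average (log2 fold change -0.04, adjusted p = 0.834 by edgeR, and -0.08 without Ctrl shRNA replicate 2). *Tnfrsf1b*, TNF receptor 2, had 164, 138 and 144 CPM in control libraries against 208, 209 and 202 CPM in knockdown libraries (0.47, adjusted p = 0.180 by edgeR), and it rose past the threshold without Ctrl shRNA replicate 2 (0.41, adjusted p = 0.0403). The death receptor *Fas* had overlapping groups with all libraries, since Ctrl shRNA replicate 2 was highest at 27.6 CPM (0.19, adjusted p = 0.821 by edgeR). Without that library *Fas* rose (0.79, adjusted p = 0.0198 by edgeR).

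The 11 adaptors and ubiquitin ligases held 0 called genes in either fit, and *Birc3*, which encodes the ubiquitin ligase cIAP2, had the largest difference, from 6.09 ± 1.09 to 9.94 ± 0.680 CPM (SD, n = 3 each; log2 fold change 0.71, adjusted p = 0.258 by edgeR, and 0.72 with adjusted p = 0.0852 without Ctrl shRNA replicate 2). With all 6 libraries, the 5 deubiquitinases and ubiquitin-binding regulators each had a positive log2 fold change, and *Tnfaip3* alone of them passed. Of the 10 genes for kinases that restrain RIPK1 and for their adaptors and regulatory subunits, such as *Tab2* and *Ikbkg*, 0 passed with all libraries. *Ikbke*, an IKK-related kinase, was at 13.2 to 14.2 CPM in the controls and, in knockdown replicates 1, 2 and 3, at 19.4, 21.6 and 23.3 CPM (0.65, adjusted p = 0.173 by edgeR), and rose without Ctrl shRNA replicate 2 (0.61, adjusted p = 0.0336).

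Of the 11 regulators of RIPK3 and MLKL, such as the chaperones *Hsp90aa1* and *Cdc37*, 0 were called in either fit, and with all libraries the largest difference was that of *Stub1*, a ubiquitin ligase gene that acts on RIPK3 (log2 fold change -0.28, adjusted p = 0.352 by edgeR, and -0.29 without Ctrl shRNA replicate 2, where *Itpk1* at 0.30 was slightly larger in size). The 13 genes of membrane repair and shedding, among them the ESCRT-III subunits that remove damaged membrane after MLKL has acted, had 4 positive log2 fold changes and a median of -0.23 with all libraries, beside 48.7% positive and a median of -0.01 over all genes. Without Ctrl shRNA replicate 2 they had 2 positive values and a median of -0.15, beside 47.3% and -0.02 over all genes. In either fit, 0 were called. The largest difference among them, *Chmp2a* at -0.97, rested on Ctrl shRNA replicate 2, which was at 224 CPM against 72.4 and 77.1 in the other controls, and without it the value was -0.24 (adjusted p = 0.119 by edgeR).

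Of the 8 mitochondrial partners of PGAM5, 0 were called with all libraries. *Dnm1l*, which encodes the fission protein DRP1, stood at 115 and 119 CPM on average (log2 fold change 0.05, adjusted p = 0.732 by edgeR, and 0.004 without Ctrl shRNA replicate 2). *Fundc1*, a receptor gene for the removal of mitochondria, was at -0.84 (adjusted p = 0.384 by edgeR) with 63.8 CPM in Ctrl shRNA replicate 2 against 21.3 and 23.6 CPM in the other controls, and at -0.17 (adjusted p = 0.444) without that library. *Pink1*, a kinase gene of the same process, was at -0.46 (adjusted p = 0.209 by edgeR) and, without the library, at -0.44 (adjusted p = 0.0532). *Nfe2l2*, which encodes the antioxidant factor NRF2, reached 969 CPM in Ctrl shRNA replicate 2 but 440 and 430 CPM in the other controls, against 616, 689 and 594 CPM in the knockdown samples. Its log2 fold change was 0.05 with all libraries (adjusted p = 0.956 by edgeR) and 0.53 without that library (adjusted p = 0.0194 by edgeR). Of the 6 interferon inputs, *Irf1*, a transcription factor gene induced by interferon and by NF-κB, was at 82.5, 61.1 and 78.0 CPM in the controls and 121, 118 and 115 CPM in the knockdown samples (0.68, adjusted p = 0.179 by edgeR), and rose without Ctrl shRNA replicate 2 (0.55, adjusted p = 0.0115). The 4 caspase 8 targets held 0 called genes in either fit. *Casp6*, a caspase gene, was at -0.53 (adjusted p = 0.383 by edgeR) with 19.2 CPM in Ctrl shRNA replicate 2 against 9.40 and 11.8 CPM in the other controls, and at -0.20 (adjusted p = 0.467) without that library. *Bid*, which encodes a substrate that carries the signal to mitochondria, was at 0.36 (adjusted p = 0.371 by edgeR) and at 0.52 without the library (adjusted p = 0.0813).

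**Figure D4:**
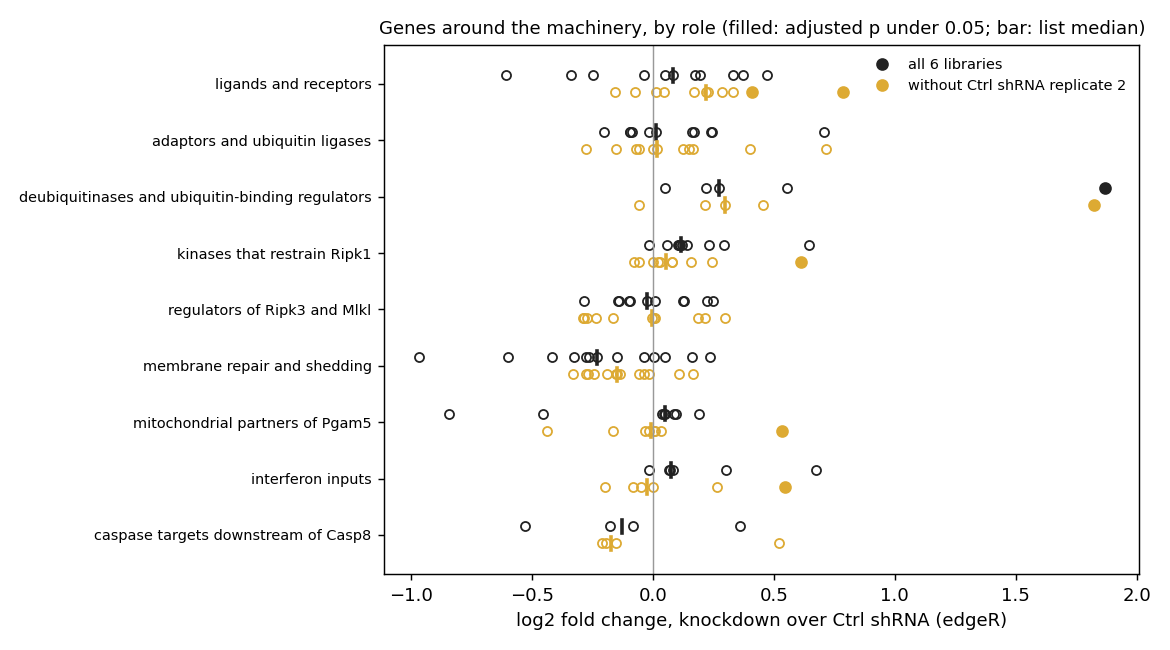
Log2 fold change of knockdown over Ctrl shRNA (x axis) for the genes around the machinery, in 9 lists by role (y axis), with all 6 libraries and without Ctrl shRNA replicate 2. Filled points passed an adjusted p of 0.05 and bars are list medians, and *Tnfaip3* at 1.87 and 1.82 lies apart from the other genes in both fits.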

How the data were processed

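RNA-seq of 6 samples (3 Ctrl shRNA, 3 Idh3α shRNA + Slc25a1 shRNA) was analysed, grouped by sample title. The authors deposited raw counts per Ensembl gene, and FPKM values computed from the same genes with a library size of their own. The submitters' processing notes name mm10, HISAT2 2.0.5, StringTie 1.3.3b and featureCounts 1.5.0-p3. The strand setting is not given in the sources used here. Of the genes also in GENCODE M21 (GRCm38), 98.3% had identical positions.

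Counts were filtered with filterByExpr, TMM-scaled and tested with edgeR 4.0.16 (quasi-likelihood, no covariate, R 4.3.3) at a Benjamini-Hochberg adjusted p of 0.05 over 15307 genes (15709 without Ctrl shRNA replicate 2). Totals of 27273502 to 28535653 counts per library set the counting error, and intervals are 95%. Alternatives were other scalings and filters, a replicate block, DESeq2 1.42.0, limma 3.58.1 on voom values or FPKM, and each library left out. Named are all members, the targets, and, per pathway list, each gene called in either of these fits or otherwise the largest difference, and for each member with at least 10 counts in every sample the gene with the highest r. Further list genes (*Tnf*, *Fasl*, *Tnfsf10*, *Tnfrsf1a*, *Itpk1*, *Dnm1l*, *Fundc1*, *Pink1*, *Bid*) were chosen after their values were seen. The members and lists were chosen with earlier results of these data known.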

Additional observations from a re-analysis of the deposited data

How the results depend on the processing

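Under the 18 alternatives, 0 members were called, although *Ripk3* had no value or no adjusted p in some of them. The log2 fold changes of *Ripk1*, *Fadd*, *Cflar* and *Pgam5* kept their direction in all 18. That of *Mlkl* was reversed with library size only (0.11, where the median of all genes was 0.16), with voom quality weights (0.10) and with DESeq2 without Ctrl shRNA replicate 2 (0.10), and leaving out 1 library each gave -0.23 to 0.09, with 0.093 without Ctrl shRNA replicate 2. That of *Casp8* was reversed with library size only (0.13) and with quality weights (0.0089). That of *Ripk3* was reversed with quality weights (-0.42) and with DESeq2 without Ctrl shRNA replicate 2 (-0.10), and leaving out 1 library each gave -0.10 (Ctrl shRNA replicate 2) to 1.20 (Ctrl shRNA replicate 3). The cause was not tested. Against 10 genes called in all and 1 of the lists, library size only gave 1 and 0, DESeq2 gave 457 and 8, quality weights gave 2298 and 23, DESeq2 without Ctrl shRNA replicate 2 gave 926 and 14, and leaving out 1 library each gave 0 to 281 and 0 to 6. The 281 and 6 came without Ctrl shRNA replicate 2, and the other libraries gave 0 or 1 gene called. The replicate block gave 0 and 0 (*Tnfaip3*: adjusted p = 0.446 by edgeR), and 687 higher and 446 lower genes at an unadjusted p under 0.05. Replicates share a number only: the correlation of same-numbered deviations was -0.15 to 0.04. With 1 library left out, the log2 ratio of *Cflar* to *Casp8* differed by -0.29 to 0.06, with an opposite sign without Ctrl shRNA replicate 1 (0.0084), Ctrl shRNA replicate 3 (0.063) or knockdown replicate 2 (0.061). That of *Fadd* to *Casp8* differed by 0.24 to 0.77. *Ripk3* and *Zbp1* had the fewest counts of the 8 members, 227 and 13 over all libraries.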
